A study of Dunaliella salina with 6 samples.

Results

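The annotation of *Dunaliella salina* Bardawil holds 9 genes that carry a domain of 4 families of metal transporter, which are NRAMP, cation efflux (CDF), VIT1 and Ctr. They were chosen by the Pfam accessions of these domains in the gene models, and they are 9 of the 25081 genes in the expression table. Only 7573 of the genes in the table have any Pfam accession, so a gene of these families without one was not counted. NRAMP was found in 2 of them (NRAMP4 and RET1), Ctr in 2 (CTR1 and CTR2), VIT1 in 1 (CVL1) and cation efflux in 4 (MTP1A, MTP1B, MTP2 and MTP5). *D. salina* is a single-celled green alga of salt water that lacks a rigid cell wall, and Bardawil is the variety kept as strain UTEX LB 2538. All libraries came from vegetative wild-type cells in shaken liquid medium with 1 M NaCl, at 24 °C and 50 µE per m² per s of continuous light, sampled at 3 days. The groups differed in the iron added to the medium, 0 µM in 3 libraries and 1.5 µM in the other 3, with a flask for each library. Poly(A) RNA was sequenced in single-end reads of 50 nt, and levels are FPKM, fragments per kb of transcript and per 1000000 mapped reads.

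The 4 families move metal ions across membranes in different directions. NRAMP proteins couple the movement of iron, manganese and other divalent metals into the cytosol to a proton gradient, and Ctr proteins form trimeric pores that let copper in its reduced state into the cytosol. VIT1, known from *Arabidopsis*, loads iron into the vacuole, and cation efflux proteins carry zinc, manganese and related ions out of the cytosol, into the vacuole or other compartments. In green algae iron uptake and copper are tied through FOX1-type ferroxidases, which oxidise iron at the cell surface and hold copper in their active sites.

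NRAMP4 and both Ctr genes were higher at 0 µM iron than at 1.5 µM, and MTP1B was lower. These 4 of the 9 genes passed an adjusted p of 0.05 (limma across all 13909 genes tested, Benjamini-Hochberg adjustment), 3 as higher and 1 as lower. Over all genes tested, 9.39% passed in either direction, 4.19% as higher and 5.20% as lower. All 9 genes had a mean FPKM of at least 1 and so passed the filter on low values. Their median log2 fold change was 0.00, as was that of all genes tested. Every log2 fold change here is 0 µM over 1.5 µM on the scale of FPKM + 1.

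Steps in the lowest values implied between 18500000 and 24700000 reads per library, but among values under 10 reads the share that came within 0.05 of a whole number was 22.7% to 37.1%, so counts were not recovered. Summed FPKM was lower in every 0 µM library, at 472982 to 537245, than in the 1.5 µM libraries, at 538457 to 610113. Rescaling the libraries to the same sum moved the median log2 fold change of the genes tested to 0.17. As a check of the condition, the mean FPKM at 0 and 1.5 µM was 5097 and 4.84 for the flavodoxin gene FLD1, 917 and 3.81 for the ferroxidase gene FOX1, and 75.6 and 440 for the ferritin gene FER1. Nothing in the labels relates flasks of the same number. The limma p-values set the difference between the groups against the spread between these flasks, which limma moderates across genes.

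**Figure D1:**
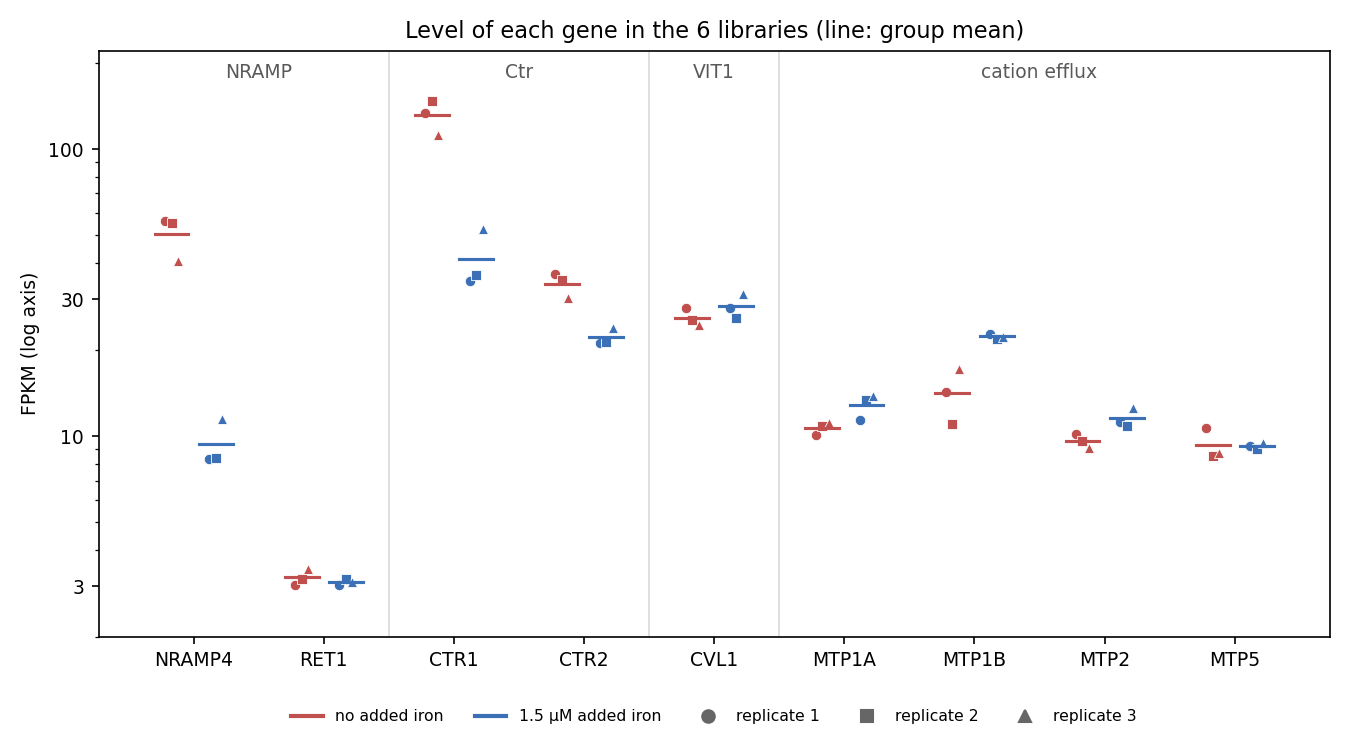
FPKM (log axis) of the 9 genes in each of the 6 libraries, grouped by domain, with red for no added iron, blue for 1.5 µM added iron, and marker shapes for replicates 1 to 3. NRAMP4 and CTR1 are far apart between the groups, with replicate 3 of each group lying nearest to the other group, whereas RET1, CVL1 and MTP5 overlap.

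NRAMP4 (DsB_g19319) changed most of the 9 genes. Its model lies on the minus strand of chromosome 11, between 11071350 and 11093097 of the authors' assembly, with 13 exons and a coding length of 1566 nt. In *Chlamydomonas*, a gene of the same name is among those that respond to low iron. At 0 µM its FPKM was 56.0, 55.1 and 40.7 in replicates 1, 2 and 3. At 1.5 µM it was 8.29, 8.39 and 11.5. The groups did not overlap, and the lowest library at 0 µM was 3.54 times the highest at 1.5 µM. In each group replicate 3 was the library nearest to the other group. NRAMP4 rose by 2.31 on the log2 scale (SE 0.162, 95% interval from 1.94 to 2.69, limma adjusted p = 1.46e-04). In absolute size this was larger than in 99.6% of the genes tested.

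RET1 (DsB_g13771), the other gene with an NRAMP domain, differed from NRAMP4 in level and in response. Its coding length of 3393 nt in 17 exons, on the minus strand of chromosome 7 between 18338767 and 18365715, exceeds that of NRAMP4. At 0 µM its FPKM was 3.04, 3.19 and 3.45 in replicates 1, 2 and 3. The 1.5 µM libraries had 3.02, 3.18 and 3.11. The groups overlapped, and all 6 libraries lay within a narrow range. A log2 difference of 0.04 did not pass (limma adjusted p = 0.830), and its 95% interval of -0.17 to 0.26 leaves out a change of the size seen in NRAMP4. RET1 had the lowest level of the 9 genes in both conditions, although still a higher mean than 52.3% of all genes in the table.

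The ratio of NRAMP4 to RET1 within a library, both per length, was 18.4, 17.3 and 11.8 at 0 µM. At 1.5 µM that ratio was 2.75, 2.64 and 3.70. The groups did not overlap in this ratio (exact permutation p = 0.1, the smallest possible for 3 libraries against 3). All 8 pairs of genes that share a domain were tested in this way. The permutation test was run on the difference in log2(FPKM + 1) between the 2 genes, rather than on the FPKM ratio printed. The adjusted p over the 8 pairs was 0.16 for NRAMP4 and RET1.

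CTR1 (DsB_g20048), a gene for a Ctr copper transporter, had the highest level of the 9 genes in both conditions. It has 14 exons and a coding length of 1332 nt, and it lies on the minus strand of chromosome 12 between 1936465 and 1953388. At 0 µM its FPKM was 134, 147 and 112 in replicates 1, 2 and 3. At 1.5 µM it was 34.7, 36.5 and 52.8. The groups did not overlap, and as for NRAMP4 replicate 3 of each group was nearest to the other group. CTR1 rose by 1.66 on the log2 scale (SE 0.175, 95% interval from 1.25 to 2.06, limma adjusted p = 1.25e-03). Its mean FPKM over all libraries was above that of 96.7% of the genes in the table.

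CTR2 (DsB_g22217), the other gene with a Ctr domain, rose by 0.60 on the log2 scale (SE 0.103, 95% interval from 0.36 to 0.83, limma adjusted p = 0.0111). Its model has 2 transcripts, and the first has 19 exons and a coding length of 2697 nt, on the plus strand of chromosome 14 between 571319 and 586202. Replicates 1, 2 and 3 had an FPKM of 36.7, 34.9 and 30.2 at 0 µM. They had 21.1, 21.3 and 23.8 at 1.5 µM. The groups were separate, but the lowest library at 0 µM was only 1.27 times the highest at 1.5 µM. The limma adjusted p was 0.0545 when replicate 2 of 0 µM was left out and 0.0528 when replicate 2 of 1.5 µM was, at a log2 change of 0.57 in both.

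Within the Ctr pair the balance lay further towards CTR1 at 0 µM. CTR1 had 3.65, 4.20 and 3.72 times the FPKM of CTR2 in replicates 1, 2 and 3 at 0 µM. It had 1.65, 1.71 and 2.22 times that of CTR2 at 1.5 µM. The lowest ratio at 0 µM lay above the highest at 1.5 µM (exact permutation p = 0.1, the smallest possible, and 0.16 when adjusted over the 8 pairs). Summed over both genes, Ctr transcripts came to 165 ± 20.2 FPKM at 0 µM and 63.4 ± 11.5 at 1.5 µM (SD, n = 3), with an exact permutation p at its floor of 0.1. Another gene with the symbol of a copper transporter, COPT1 (DsB_g07495), has no Pfam accession in the annotation and is not one of the 9. Its FPKM was 15.3 to 17.6 at 0 µM and 16.1 to 18.1 at 1.5 µM, and its log2 difference of -0.03 did not pass (limma adjusted p = 0.894).

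Replicate 3 lay towards the other group for both CTR1 and NRAMP4. It was also nearest to the other group, in both groups, for CTR2 and FOX1, but not for MTP1B at 1.5 µM. Its summed FPKM was the lowest at 0 µM, 472982, and the highest at 1.5 µM, 610113. The ratio of CTR1 to NRAMP4 ranged less within a group than the level of either gene. No other pair of genes from different families was compared, so the steady ratio is not shown to be particular to CTR1 and NRAMP4. CTR1 had 2.39, 2.66 and 2.76 times the FPKM of NRAMP4 in replicates 1, 2 and 3 at 0 µM. The same ratio was 4.19, 4.35 and 4.60 at 1.5 µM, so that NRAMP4 stood nearer to CTR1 at 0 µM.

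**Figure D2:**
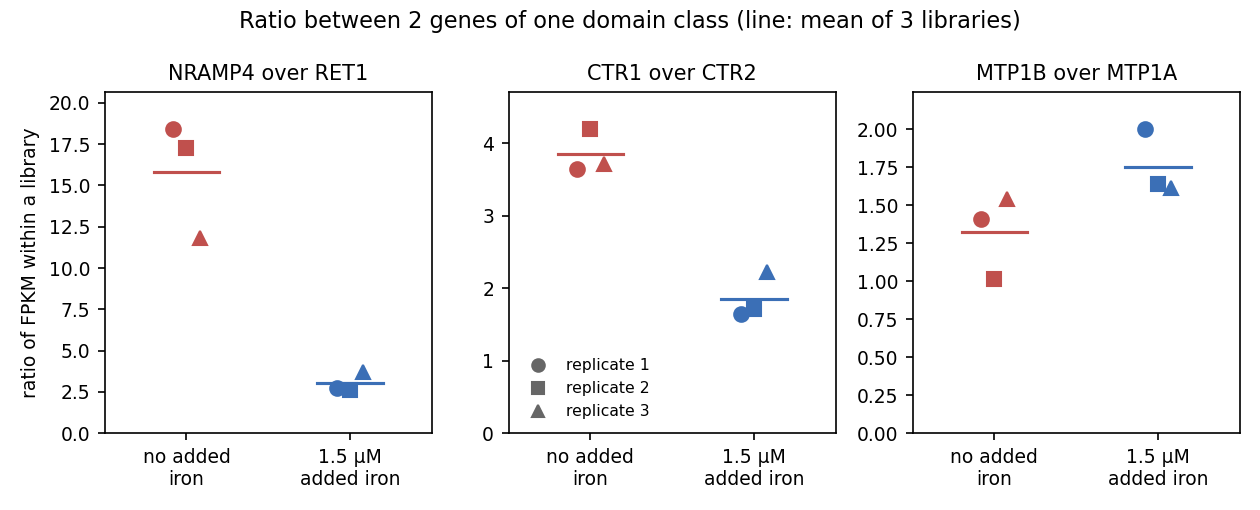
Ratio of the FPKM of 2 genes with the same domain within each library, on linear axes from 0, for NRAMP4 over RET1, CTR1 over CTR2 and MTP1B over MTP1A. Points are single libraries and lines are means of 3. The ratios of the NRAMP and Ctr pairs are higher without added iron and that of the MTP1 pair is lower, and none of the ratios shown overlaps between the groups. The other cation efflux pairs are not shown, and some of them overlap.

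The gene with a VIT1 domain, CVL1 (DsB_g02024), has 10 exons and a coding length of 807 nt, on the minus strand of chromosome 1 between 29432473 and 29446314. Replicates 1, 2 and 3 had an FPKM of 27.9, 25.4 and 24.4 at 0 µM. They had 27.9, 25.8 and 31.2 at 1.5 µM. The groups overlapped, with a range of 24.4 to 27.9 at 0 µM and 25.8 to 31.2 at 1.5 µM. Its log2 difference of -0.12 did not pass (95% interval from -0.36 to 0.11, limma adjusted p = 0.503).

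Of the 4 cation efflux genes, MTP1B (DsB_g23786) was lower at 0 µM. It shares its name with MTP1 of *Arabidopsis*, which loads zinc into the vacuole. Its 12 exons, with a coding length of 2217 nt, lie on the minus strand of chromosome 15 between 10518150 and 10541220. At 0 µM the FPKM was 14.2, 11.0 and 17.1 in replicates 1, 2 and 3. At 1.5 µM it was 22.7, 21.8 and 22.2. The groups did not overlap, and the coefficient of variation was 21.6% at 0 µM against 2.10% at 1.5 µM. MTP1B changed by -0.64 on the log2 scale (SE 0.142, 95% interval from -0.97 to -0.31, limma adjusted p = 0.0303). The limma adjusted p lay above the threshold, between 0.0657 and 0.0909, when any library other than replicate 3 of 0 µM was left out, and it was 0.0919 with no filter on low values. With every library rescaled to the same summed FPKM it was 0.0643, at a log2 change of -0.48.

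MTP1A (DsB_g23783) lies 11187 nt from MTP1B on the opposite strand, between 10486975 and 10506962 of chromosome 15, and also has 12 exons. Their 3′ ends face each other across 2 gene models with mean FPKM values of 0.595 and 0.311. At 0 µM the FPKM of MTP1A was 10.1, 10.8 and 11.1 in replicates 1, 2 and 3. At 1.5 µM it was 11.3, 13.3 and 13.8. The groups nearly met without overlap, and the log2 difference of -0.24 did not pass (95% interval from -0.45 to -0.02, limma adjusted p = 0.160). MTP1B had 1.41, 1.01 and 1.54 times the FPKM of MTP1A at 0 µM, and 2.00, 1.64 and 1.62 times at 1.5 µM (exact permutation p = 0.1, the smallest possible, and 0.16 when adjusted over the 8 pairs). Of the other cation efflux pairs, the ratios of MTP2 to MTP5 and of MTP5 to MTP1B were also separate, with the same p-values. Those of MTP2 to MTP1A, MTP2 to MTP1B and MTP5 to MTP1A overlapped between the groups. The sources used here do not state how reads common to MTP1A and MTP1B were assigned, and the similarity of their sequences was not analysed here.

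MTP2 (DsB_g00549) is the only one of the 9 genes whose model lists a further domain, the dimerization domain at the end of cation efflux proteins. It has 14 exons and a coding length of 1308 nt, on the plus strand of chromosome 1 between 8709301 and 8728592. Replicates 1, 2 and 3 had an FPKM of 10.2, 9.61 and 9.10 at 0 µM. They had 11.2, 10.9 and 12.5 at 1.5 µM. The groups were separate by a small margin. Its log2 difference of -0.24 did not pass (95% interval from -0.43 to -0.04, limma adjusted p = 0.127). The limma adjusted p was 0.0466 with median-of-ratios scaling and 0.0284 with quantile normalization. With every library rescaled to the same summed FPKM it was 0.417, at a log2 difference of only -0.07.

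MTP5 (DsB_g03548), with 16 exons and a coding length of 2577 nt, lies on the minus strand of chromosome 2 between 17042331 and 17078090. Replicates 1, 2 and 3 had an FPKM of 10.7, 8.53 and 8.73 at 0 µM. They had 9.24, 9.04 and 9.48 at 1.5 µM, within the range of the 0 µM libraries. Its log2 difference was 0.00 (95% interval from -0.22 to 0.22, limma adjusted p = 0.992). Summed over the 4 genes, cation efflux transcripts came to 43.7 ± 3.28 FPKM at 0 µM and 55.8 ± 1.86 at 1.5 µM (SD, n = 3), with an exact permutation p at its floor of 0.1. This sum was not rescaled for the lower summed FPKM of the 0 µM libraries. Mean FPKM at 0 and 1.5 µM was 14.1 and 22.2 for MTP1B, 10.7 and 12.8 for MTP1A, 9.63 and 11.5 for MTP2, and 9.31 and 9.25 for MTP5. The sum therefore does not show a fall shared by the 4 genes.

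The groups did not overlap for 6 of the 9 genes, which were those past the threshold and MTP1A and MTP2. Over all genes tested, 30.2% of the genes did not overlap. The same 6 genes had an unadjusted p under 0.05, as did 25.0% of all genes tested.

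**Figure D3:**
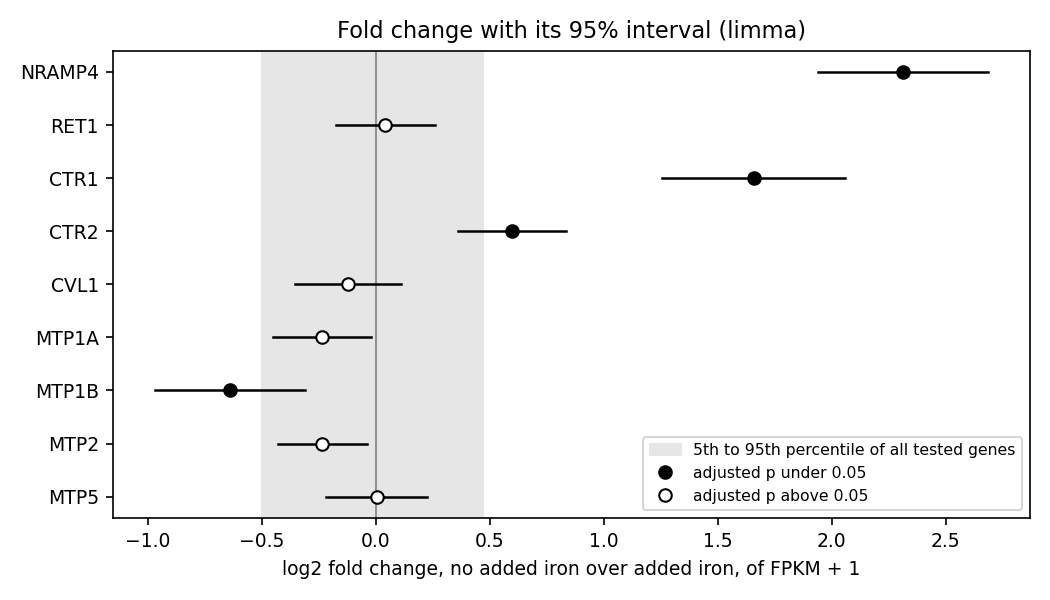
Log2 fold change of FPKM + 1, no added iron over added iron, for the 9 genes, with 95% intervals from limma and filled points at an adjusted p under 0.05. The grey band spans the 5th to the 95th percentile of all genes tested, -0.50 to 0.47, and the points of NRAMP4, CTR1 and CTR2 lie to its right and that of MTP1B to its left.

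The order of the levels differed between the conditions mainly through NRAMP4, which stood at rank 7 of the 9 genes at 1.5 µM and at rank 2 at 0 µM. At 1.5 µM CTR1 was highest, followed by CVL1, MTP1B, CTR2, MTP1A, MTP2, NRAMP4, MTP5 and RET1. In that order the libraries of MTP1B and CTR2 overlapped, as did those of each neighbouring pair from MTP1A to MTP5. At 0 µM the order was CTR1, NRAMP4, CTR2, CVL1, MTP1B, MTP1A, MTP2, MTP5 and RET1. There each neighbouring pair from MTP1B to MTP5 overlapped, and the other neighbours were separate. The median of the 9 mean levels was 18.2 FPKM, against 9.87 for the genes tested.

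No other gene model overlapped any of the 9 genes. NRAMP4 starts 75 nt from the start of a gene on the opposite strand, DsB_g19320, which has a WD40 repeat domain. That neighbour had a mean FPKM of 8.05 at 0 µM and 7.41 at 1.5 µM, and its log2 difference of 0.10 did not pass (limma adjusted p = 0.736). CVL1 and MTP1B are also arranged head to head with a neighbour, at 185 and 316 nt, and neither neighbour passed. Of the 18 genes next to a member, 11 were tested, and 1 was higher and 0 lower at 0 µM, a share near the 9.39% of all genes tested that passed. The higher one, DsB_g19318, has a short-chain dehydrogenase domain and lies 41259 nt from NRAMP4 on its 3′ side. Its mean FPKM was 8.90 at 0 µM and 3.75 at 1.5 µM, and it rose (log2 change 1.06, limma adjusted p = 3.67e-04).

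For each gene past the threshold, the 3 genes outside the families were taken whose log2(FPKM + 1) correlated most closely with it over the 6 libraries, among genes that passed in the same direction. Such correlations share the contrast between the groups, and 66 of 580 candidate genes reached a Pearson r above 0.99 with NRAMP4. That level was reached by 20 of 580 with CTR1, 44 of 580 with CTR2 and 7 of 722 with MTP1B. The closest to NRAMP4 were DsB_g09365 with an ArfGAP domain, DsB_g18397 with a major facilitator domain and RFD2 with a RibD domain, with r of 0.9993, 0.9990 and 0.9988. CTR1 was closest to DsB_g19415 with an emp24 domain, DsB_g19053 with an R3H domain and the phosphofructokinase gene PFK2, at 0.9974, 0.9969 and 0.9964. CTR2 was closest to PGRL1, to DsB_g17626 with ankyrin repeats and to PRX1 with peroxiredoxin domains, at 0.9989, 0.9987 and 0.9980. MTP1B was closest to DsB_g16369, to the protein kinase gene DsB_g16589 and to DsB_g16370, at 0.9993, 0.9962 and 0.9958.

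Beside these families, 35 genes carry a domain of metal handling or of a copper protein from a list of Pfam accessions, and 34 of them were tested. At 0 µM 7 were higher (IRT1, FRE1A, FOX1, TFN1, TFN3, TFN5 and TFN6) and 6 were lower (ZIP9, FRE1B, FER1, TFN4, PCY1 and CTP2), where 4.19% of all genes tested were higher and 5.20% lower. Several of these genes were known from earlier results of these data, and their median log2 fold change was 0.05. By domain, the ZIP transporter gene IRT1 rose by 5.02 and the ferric reductase gene FRE1A by 5.73 on the log2 scale, beside 2.31 for NRAMP4. FRE1B, which also has a ferric reductase domain, changed by -0.35 (limma adjusted p = 0.0326). Whether these genes serve iron uptake was not tested. ZIP9, whose family carries zinc and iron into the cytosol, had a mean FPKM of 29.9 at 0 µM and 56.6 at 1.5 µM (log2 change -0.91, limma adjusted p = 5.84e-03). The other 6 ZIP genes did not pass.

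Of the 13 tested genes with a copper-related domain, 1 was higher and 2 were lower at 0 µM, beside 4.19% and 5.20% of all genes tested. The higher one was the multicopper ferroxidase gene FOX1, at 7.56 on the log2 scale. The lower ones were PCY1, the gene for plastocyanin, the copper protein that carries electrons to photosystem I, and CTP2, which has the domains of a heavy-metal pumping ATPase. PCY1 had a mean FPKM of 2057 ± 129 at 0 µM and 3328 ± 287 at 1.5 µM (SD, n = 3), a log2 change of -0.69 (SE 0.0971, limma adjusted p = 4.53e-03). CTP2 had 9.29 ± 0.718 and 13.6 ± 0.269 (SD, n = 3), a log2 change of -0.51 (SE 0.0807, limma adjusted p = 7.99e-03). Genes of these lists were not followed under other scalings. Whether PCY1, CTP2, FRE1B and ZIP9 stay lower with libraries rescaled to the same summed FPKM was therefore not tested. The copper chaperone gene ATX1 had a mean FPKM of 31.8 at 0 µM and 32.7 at 1.5 µM, and its log2 difference of -0.04 did not pass (limma adjusted p = 0.859). The assembly factor genes for cytochrome c oxidase, COX17, SCO1A, SCO1B and COX11, did not pass either, with log2 differences between -0.11 and 0.19.

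Replicate 3 of both groups had the larger share of near-whole read values, 35.1% and 37.1% against 22.7% to 30.2% in the others, and the labels do not say how it differed. In replicates 1 and 2 alone the log2 change was 2.60 for NRAMP4, 1.95 for CTR1, 0.73 for CTR2 and -0.78 for MTP1B, and these 4 genes passed the threshold, as did 12% of all genes tested in that fit, whose median moved to 0.05. Replicate 3 alone leaves a single library in each group and no test. Its FPKM at 0 µM was 3.54 times that at 1.5 µM for NRAMP4, 2.13 times for CTR1, 1.27 times for CTR2 and 0.770 times for MTP1B. These directions were fixed by the choice of genes whose groups do not overlap. The 4 genes were also chosen by the fit on all 6 libraries, so passing in replicates 1 and 2 is not independent support.

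**Figure D4:**
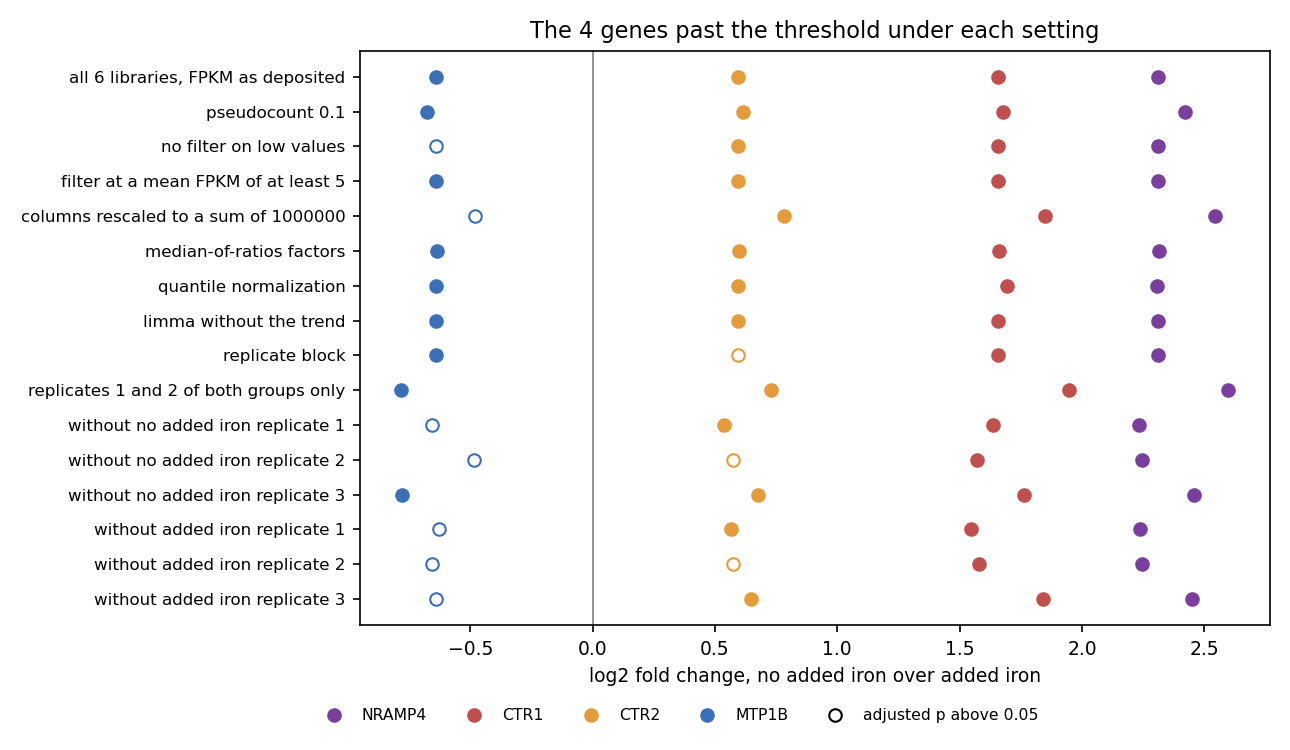
Log2 fold change of the 4 genes past the threshold with all 6 libraries and under each of 15 other settings, with open points where the adjusted p was above 0.05. NRAMP4 and CTR1 stay filled throughout, between 2.23 and 2.60 and between 1.55 and 1.95, while CTR2 has 3 open points and MTP1B has 7.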

How the data were processed

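STAR 2.4.0j aligned the reads and Cuffdiff 2.0.2 gave the FPKM values that the authors deposited, per the submitters' processing notes and the series' design text. Whether strand was used, how reads with several alignments were counted and any further scaling are not stated there. Positions (other values of the deposited annotation, version 1.1) count from 1 in the authors' own assembly. Domain names come from general knowledge of Pfam, and sequences were not used here.

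The 13909 genes whose mean FPKM over the 6 libraries was 1 or more were tested. The two-sided test was that of limma 3.58.1 (R 4.3.3) on log2(FPKM + 1), fitted on group alone with a mean-variance trend, and p was adjusted after Benjamini and Hochberg over all of them at a threshold of 0.05. The pseudocount understates the change of low genes. The fit was tested on simulated data. Implied reads of the members with 1 transcript ranged from 216 for RET1 to 6040 for CTR1, as an approximation. Single values were compared with a two-sided exact permutation test in Python 3.11.15.

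The members, lists and tests were chosen with earlier results of these data known. All 9 members are named. Genes of the other lists are named where they passed, and ATX1, COX17, SCO1A, SCO1B, COX11 and COPT1 were chosen after their values were seen. Other pseudocounts, filters and scalings, a replicate block and leaving out libraries were tried as alternatives.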

Additional observations from a re-analysis of the deposited data

How the results depend on the processing

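The counts of genes that passed and the fold changes of the members were recomputed under 15 other settings, except that RET1 could not be tested at a mean FPKM of at least 5. Results of single genes outside the members, of pairs and of sums were not. NRAMP4 and CTR1 passed as higher in all 15, with adjusted p of at most 6.98e-03 and 0.0185. Of the members, 2 to 4 passed when 1 library was left out, and over all genes 586 to 1784 did. Over all genes 3736 passed with columns rescaled to a sum of 1000000, 3185 of them higher (85.3%, against 44.6% as deposited), which moved the median of all genes to 0.17 on the log2 scale. With quantile normalization 2148 passed and with a replicate block 813. Deviations of same-numbered libraries correlated at 0.02, 0.08 and -0.13, and those of differently numbered libraries at -0.17 to 0.14. The numbers were not treated as pairs, though these values do not show that flasks of the same number were unrelated. With the block CTR2 kept its fold change of 0.60 at an adjusted p of 0.0568, and the other 8 members stayed on their side of the threshold. When 1 library was left out CTR2 ranged from 0.54 to 0.67 and MTP1B from -0.78 to -0.48. MTP1B did not pass with no filter (-0.64) or with rescaled columns (-0.48). MTP2 passed with median-of-ratios factors (-0.23) and quantile normalization (-0.26). With rescaled columns MTP2 and MTP1A both stood at -0.07 and did not pass. Among genes that did not pass, CVL1 changed sign with rescaled columns (0.054), and MTP5 with quantile normalization (-0.017) and when 1 library was left out (-0.091 to 0.057). The cause of these changes was not tested. Depth per library is known only approximately, so counting error is not given.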
